A study of Mus musculus with 13 samples.

Results

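The 10 genes of extracellular nucleotide breakdown and adenosine signalling were followed here. They were chosen by symbol, and all 10 were found among the 41388 genes of the files. They were 5 ectonucleotidases (Acpp, Nt5e, Entpd1, Entpd2 and Entpd3), 3 adenosine receptors (Adora1, Adora2a and Adora2b), adenosine deaminase (Ada) and the nucleoside transporter Slc29a1. ATP released by cells is broken down outside them in steps. ENTPD enzymes remove phosphates from ATP and ADP, and the phosphatase encoded by Acpp (prostatic acid phosphatase) and the 5'-nucleotidase encoded by Nt5e (CD73) turn the resulting AMP into adenosine. Adenosine then acts on G protein-coupled receptors, of which A1 (Adora1) is coupled to inhibitory and those of Adora2a and Adora2b to stimulatory G proteins, and is cleared by uptake and by deamination or phosphorylation. In dorsal root ganglia (DRG), Acpp and Nt5e are known from nonpeptidergic nociceptors, small sensory neurons that often carry the receptor Mrgprd, and A1 receptor activation is known to reduce nociceptive signalling.

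RNA was sequenced from EGFP-positive cells sorted out of the DRG of 3-month-old C57BL/6 mice, in which EGFP reports Ret, a receptor tyrosine kinase for ligands of the GDNF family. Ganglia came from spinal levels L3 to L5 (L345) or from L6 and S1 (L6S1), with 3 libraries for each level in females, 3 for L345 in males and 4 for L6S1 in males. Each library was a pool of 2 to 9 mice, and the labels do not say whether a mouse gave ganglia of both levels. All groups carried the reporter: the labels write the genotype as Tg(Ret-EGFP)SJ, as for a transgene, while the series text describes a knock-in at the Ret locus in heterozygotes. If the knock-in holds, every group had 1 altered Ret allele and no group with 2 unaltered alleles was compared. The libraries are called here by sex, level and the letter of their title. For male L6S1 E and F the level stands in the title alone, since the tissue label of these 2 names only the ganglion.

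Total counts were 13030096 to 27011995 per library. The sum of 6 neuronal markers was 8195 to 15432 CPM (the count scaled to the total of its library, corrected by the trimmed mean of M-values, TMM) in the 13 libraries. Male L6S1 D and E stood apart from the other 11. Ret was at 154 CPM in D and 87.2 in E, against 181 to 221 in the others. The sum of 8 nonpeptidergic nociceptor markers was 1135 and 591 CPM in D and E against 1787 to 2721, and that of 7 peptidergic nociceptor markers was 23832 and 31068 against 8209 to 14226. The sum of 12 glial markers was 1987 CPM in D and 5965 in E, of which Apoe made up 4985, against 935 to 1946. The median of the 12 glial markers differed from the other 11 libraries by 0.14 in D and by -0.57 in E on the log2 scale. The 10 immune markers summed to 8.01 CPM in D and 11.5 in E against 3.13 to 7.51, with C1qa at 0 counts in 10 of 13 libraries. Lyz2 alone made up 4.62 and 8.13 of these sums, and only 3 of the 10 passed a filter on low counts. The 7 fibroblast markers summed to 275 CPM in D and 591 in E against 80.4 to 442, of which Dcn alone made up 257 and 570. Other fibroblast markers differed in direction: in E, Col1a2 (3.51 CPM) and Col3a1 (1.23) lay below their medians over the 13 libraries (8.11 and 2.07). Sums of A-fibre, C low-threshold mechanoreceptor and vascular markers in D and E lay within the range of the others. Th made up 835 of the 1082 CPM of the C low-threshold sum in D and 849 of 1218 in E. The median of these 4 markers was -0.49 in D and -0.53 in E on the log2 scale, against -1.05 to 0.79 in the others. The male level comparison is also given without D and E because they stood apart.

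All 10 genes had counts in every library and passed the filter on low counts, as did 15406 genes in all. Compared per length, as the deposited RPKM (the CPM per kilobase of gene), Acpp was the most abundant of the 10, with a median level of 125 RPKM over the 13 libraries. It was followed by Entpd3 at 53.7, Nt5e at 24.5, Adora1 at 18.5, Slc29a1 at 16.4, Ada at 6.75, Adora2b at 5.55, Entpd2 at 4.14, Adora2a at 1.504 and Entpd1 at 1.10 RPKM. Within a library Acpp lay above Entpd3, and Entpd3 above Nt5e, in 13 of 13 libraries. Nt5e exceeded Adora1 in 10, and Adora1 exceeded Slc29a1 in 9. Slc29a1 exceeded Ada in 13 of 13, and the ranges of these 2 did not overlap. Ada and Adora2b (higher in 8 of 13), Adora2b and Entpd2 (11 of 13) and Adora2a and Entpd1 (8 of 13) were neighbours whose ranges overlapped, whereas Entpd2 stood above Adora2a in 13 of 13 without overlap.

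**Figure D1:**
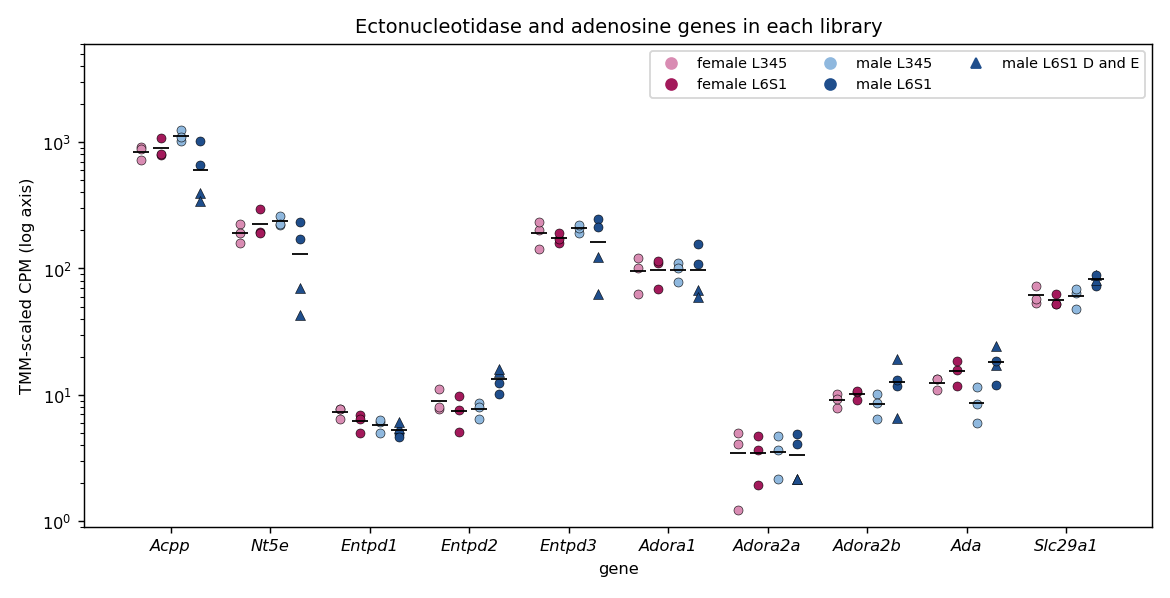
TMM-scaled CPM (log axis) of each gene in each library, coloured by sex and level, with a bar at the group mean; triangles are male L6S1 D and E. Acpp and Nt5e lie lowest in these 2 libraries, and the male L6S1 points of Ada, Entpd2 and Slc29a1 lie above the male L345 points.

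The promoters of Acpp, Nt5e and Entpd3 are shown because these 3 genes were the ones with both D and E below every other library. They were taken from RefSeq (GRCm38.p6) and run 5' to 3' on the strand of the gene, from 250 bases before to 50 after the transcript start used. The window of Acpp lies at chr9:104337673-104337972 (minus strand), that of Nt5e at chr9:88327359-88327658 (plus) and that of Entpd3 at chr9:120539568-120539867 (plus). The Nt5e window lies wholly within the gene as counted, which begins at 88327197, so it belongs to a transcript start further inside. Capitals mark matches to the motifs searched.
Acpp: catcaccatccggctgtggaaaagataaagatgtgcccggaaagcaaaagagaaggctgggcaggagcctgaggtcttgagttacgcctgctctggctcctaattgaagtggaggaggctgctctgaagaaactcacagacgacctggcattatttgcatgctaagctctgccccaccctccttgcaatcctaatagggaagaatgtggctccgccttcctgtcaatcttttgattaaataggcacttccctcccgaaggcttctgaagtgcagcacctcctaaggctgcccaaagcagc
Nt5e: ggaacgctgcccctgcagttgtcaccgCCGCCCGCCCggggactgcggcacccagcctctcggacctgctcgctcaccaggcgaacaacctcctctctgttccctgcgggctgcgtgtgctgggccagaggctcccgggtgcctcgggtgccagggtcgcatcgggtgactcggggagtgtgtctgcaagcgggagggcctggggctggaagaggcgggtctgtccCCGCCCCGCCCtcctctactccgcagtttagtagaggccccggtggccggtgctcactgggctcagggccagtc
Entpd3: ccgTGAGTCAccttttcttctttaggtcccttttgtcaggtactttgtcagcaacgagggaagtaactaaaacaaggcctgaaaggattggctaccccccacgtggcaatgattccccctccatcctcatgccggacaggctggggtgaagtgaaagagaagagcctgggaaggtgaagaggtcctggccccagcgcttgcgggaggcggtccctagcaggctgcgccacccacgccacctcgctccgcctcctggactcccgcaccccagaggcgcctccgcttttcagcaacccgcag
Both strands were searched for 5 motifs. The RUNX motif was searched as TGTGGT and the cAMP response element as TGACGTCA. The GC box, bound by Sp-family factors, was searched as GGGCGG. The TATA box was searched as TATAAA and the AP-1 motif as TGANTCA. The Acpp window held none of these letters, that of Nt5e held 4 GC boxes in 2 overlapping pairs on the other strand, and that of Entpd3 held 1 AP-1 motif. Of 32851 mouse promoter windows of this length, 35.7% held a GC box, 7.81% an AP-1 motif, 16.8% the RUNX motif, 13.6% the TATA box and 1.79% the cAMP response element. The 3 windows share no match to these motifs.

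Acpp (ENSMUSG00000032561, chromosome 9, 104288316 to 104337728 on GRCm38) was expressed in females at 719.9, 915 and 889 CPM in L345 A, B and C and at 1071, 799 and 808 CPM in L6S1 A, B and C. In males it was at 1261, 1021 and 1094 CPM in L345 A, B and C and at 1025, 393, 344 and 657 CPM in L6S1 A, D, E and F. Female levels overlapped, and in males 3 of the 4 L6S1 libraries (D, E and F) lay below every L345 library while A lay within their range. In bulk samples such as these, fewer cells of a type and less RNA per cell cannot be told apart. In the quasi-likelihood test of edgeR, the log2 fold change of Acpp between L6S1 and L345 was -0.90 in males (SE 0.32, 95% interval -1.58 to -0.21, adjusted p = 0.143) and 0.09 in females (SE 0.35, -0.65 to 0.82, adjusted p = 1). Neither passed the threshold of 0.05. Without D and E the male value was -0.43 (adjusted p = 0.623). These tests compare pools of mice, so the p-values measure the spread between these pools, estimated over all groups together. Female intervals therefore carry the spread of male L6S1 as well. Fitted on that sex alone, the SE of Acpp was 0.19 in females and 0.39 in males, and that of Nt5e 0.23 and 0.49.

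Nt5e (ENSMUSG00000032420, chromosome 9, 88327197 to 88372092) followed Acpp across the libraries. It was at 159, 226 and 191 CPM in female L345 A, B and C, and at 296, 196 and 189.7 CPM in female L6S1 A, B and C. In males it was at 263, 222 and 224 CPM in L345 A, B and C, and at 234, 70.6, 42.9 and 172 CPM in L6S1 A, D, E and F. The lowest 2 of the 13 values were again D and E, and A of male L6S1 lay within the male L345 range. The male log2 fold change was -0.86 (SE 0.43, 95% interval -1.77 to 0.04, adjusted p = 0.214, edgeR), and it was -0.22 without D and E (adjusted p = 0.712). In females it was 0.24 (SE 0.46, -0.73 to 1.22). Pearson's r of log2 CPM between Acpp and Nt5e over the 13 libraries was 0.96, and 0.87 over the 11 without D and E, which share depth and sorting as well. Acpp made up 80.8 to 90.3% of the summed RPKM of these 2 AMP-hydrolysing enzymes. The ratio of their RPKM was 4.20 to 6.47 in 12 libraries and 9.32 in male L6S1 E.

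Entpd3 (ENSMUSG00000041608, chromosome 9, 120539818 to 120568318) encodes a plasma membrane enzyme that removes phosphates from ATP and ADP and was the main ENTPD transcript. It was at 142, 201 and 233 CPM in female L345 A, B and C and at 159, 170.1 and 193 CPM in female L6S1 A, B and C. In males it was at 193, 211 and 222 CPM in L345 A, B and C and at 248, 122, 62.6 and 213 CPM in L6S1 A, D, E and F. D and E were the lowest of all 13, while A of male L6S1 was the highest. The male log2 fold change was -0.37 (SE 0.36, 95% interval -1.13 to 0.39, adjusted p = 0.519, edgeR) and turned to 0.14 without D and E (adjusted p = 0.796), so its direction rested on these libraries.

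Entpd2 (ENSMUSG00000015085, chromosome 2, 25395874 to 25401321) encodes an enzyme that prefers ATP over ADP and, in ganglia, is known from glia. Its levels were 7.74, 7.95 and 11.1 CPM in female L345 A, B and C, and 5.07, 7.58 and 9.83 CPM in female L6S1 A, B and C. In males they were 6.47, 8.66 and 8.03 CPM in L345 A, B and C, and 10.2, 15.1, 16.1 and 12.3 CPM in L6S1 A, D, E and F. All 4 male L6S1 libraries lay above all 3 male L345 libraries, with D and E highest, whereas the female levels overlapped. The male log2 fold change was 0.80 (SE 0.29, 95% interval 0.19 to 1.41, unadjusted p = 0.0137, adjusted p = 0.143, edgeR), and the female one was -0.26 (SE 0.30, -0.90 to 0.39). The difference of the level effect between the sexes was 1.05 (SE 0.42, adjusted p = 0.409). Without D and E the male value was 0.53 (adjusted p = 0.623). Of the exon bases of Entpd2, 28.8% are shared with Npdc1 on the same strand, which was at 77.1 to 864 CPM, so part of the counts may belong to that gene.

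Entpd1 (ENSMUSG00000048120, chromosome 19, 40612366 to 40741602) encodes CD39, an ATP and ADP hydrolase known from immune and endothelial cells. It was the most even of the 10, at 4.63 to 7.76 CPM, a range of 1.68-fold. Its log2 fold change between levels was -0.19 over both sexes (SE 0.18, 95% interval -0.57 to 0.19, adjusted p = 0.720, edgeR). Within a library Entpd3 made up 88.3 to 92.9% of the summed RPKM of Entpd1, Entpd2 and Entpd3 outside male L6S1. In male L6S1 its share was 92.1% in A, 80.2% in D, 65.8% in E and 89.6% in F. The share of Entpd2 ran the other way, from 6.68% in A to 29.9% in E, and Entpd1 stayed at 1.21 to 4.29% in the 13 libraries.

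**Figure D2:**
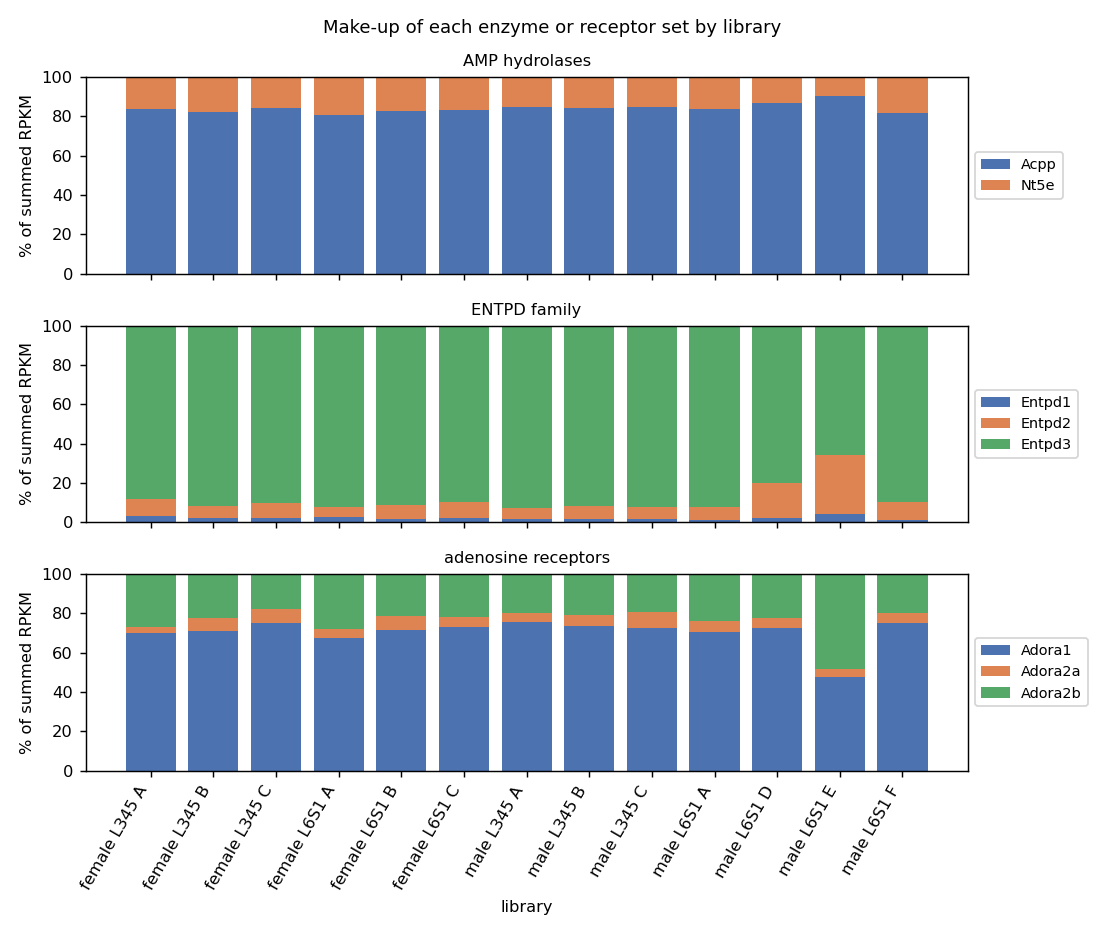
Share of each gene in the summed deposited RPKM of its set (percent, stacked bars, 1 bar per library) for the 2 AMP hydrolases, the 3 ENTPD genes and the 3 adenosine receptors. The bars differ little between libraries except in male L6S1 D and E, where Entpd2 takes more of its set, and in E, where Adora2b takes more of its set.

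Adora1 (ENSMUSG00000042429, chromosome 1, 134199223 to 134235431), the A1 receptor, was the most abundant receptor per length. It was at 63.0, 102 and 120.4 CPM in female L345 A, B and C and at 69.0, 109.6 and 114 CPM in female L6S1 A, B and C. In males it was at 78.3, 111 and 101 CPM in L345 A, B and C, and at 109, 67.0, 59.9 and 155 CPM in L6S1 A, D, E and F. The A library was the lowest of 3 in each of the first 3 groups, and D and E were low in the fourth. The group means differed by less than the SDs, from 95.03 ± 29.3 CPM (SD, n = 3) in female L345 to 97.8 ± 44.0 (n = 4) in male L6S1. The log2 fold change between levels was 0.03 over both sexes (SE 0.25, 95% interval -0.50 to 0.56, adjusted p = 0.973, edgeR) and 0.24 without D and E (adjusted p = 0.797). In males it was 0.02, and 0.44 without D and E (adjusted p = 0.628). Of its exon bases, 20.1% lie opposite Mybph, which was at 0 to 0.149 CPM.

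Adora2a (ENSMUSG00000020178, chromosome 10, 75316943 to 75334788), a receptor coupled to stimulatory G proteins, was near the low end of the 10 genes per length, at a median of 1.504 RPKM. In females it was at 1.22, 4.10 and 4.97 CPM in L345 A, B and C and at 1.94, 4.75 and 3.65 CPM in L6S1 A, B and C. In males it was at 2.16, 3.63 and 4.72 CPM in L345 A, B and C, and at 4.05, 2.17, 2.16 and 4.85 CPM in L6S1 A, D, E and F. The libraries fell into 5 low ones, namely A of female L345, female L6S1 and male L345 with D and E of male L6S1, and 8 at 3.63 CPM or more. The log2 fold change between levels was -0.05 over both sexes (SE 0.34, 95% interval -0.77 to 0.68, adjusted p = 0.967, edgeR). It was 0.16 without D and E (adjusted p = 0.906). With the letter as a replicate block, where male L6S1 rests on library A alone, it was 0.62. Its sign changed in 9 of 21 alternatives, with values from -0.26 to 0.62. In males it was -0.08, and 0.32 without D and E (adjusted p = 0.806). Pearson's r of log2 CPM between Adora1 and Adora2a was 0.89 over 13 libraries and 0.90 without D and E. Both genes were lowest in the A library of female L345, female L6S1 and male L345, but not of male L6S1. Being lowest in these 3 A libraries was shared by 21.7% of the genes tested.

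Adora2b (ENSMUSG00000018500, chromosome 11, 62248984 to 62266453), the low-affinity A2B receptor, was at 7.80, 10.2 and 9.24 CPM in female L345 A, B and C and at 9.08, 10.6 and 10.8 CPM in female L6S1 A, B and C. In males it was at 6.47, 10.1 and 8.61 CPM in L345 A, B and C and at 11.8, 6.60, 19.2 and 13.1 CPM in L6S1 A, D, E and F. Of the 4 male L6S1 libraries 3 lay above male L345, E highest of all, while D lay near the lowest. The male log2 fold change was 0.59 (SE 0.32, 95% interval -0.08 to 1.26, adjusted p = 0.240, edgeR), and it was 0.55 without D and E (adjusted p = 0.623). Without E alone it was 0.30 (adjusted p = 0.560), and without E and F it was 0.13 (adjusted p = 0.867). Over both sexes the value was 0.38, and 0.14 without E and F (adjusted p = 0.944). Adora1 held 67.7 to 75.6% of the summed receptor RPKM in 12 libraries. In male L6S1 E it held 47.8% and Adora2b 48.2%.

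Ada (ENSMUSG00000017697, chromosome 2, 163726584 to 163750239), which converts adenosine to inosine, had the largest level difference of the 10 in the fit over both sexes. It was at 13.3, 10.9 and 13.2 CPM in female L345 A, B and C and at 15.7, 11.8 and 18.5 CPM in female L6S1 A, B and C. In males it was at 5.95, 8.47 and 11.5 CPM in L345 A, B and C and at 12.0, 24.6, 17.3 and 18.5 CPM in L6S1 A, D, E and F. All 4 male L6S1 libraries exceeded all 3 of male L345, A by little, while female libraries overlapped. The log2 fold change was 1.06 in males (SE 0.30, 95% interval 0.41 to 1.70, unadjusted p = 0.0031, adjusted p = 0.137, edgeR) and 0.30 in females (SE 0.31, -0.37 to 0.96, adjusted p = 1). Over both sexes it was 0.68 (SE 0.22, 0.22 to 1.14, unadjusted p = 0.0068, adjusted p = 0.361). The difference between the sexes was 0.76 (SE 0.43, adjusted p = 0.425). DESeq2 called Ada in males (1.07, adjusted p = 0.0255), where it called 7.53% of the 12812 genes with an adjusted p. Without D and E the male value was 0.80 (adjusted p = 0.623, edgeR).

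Slc29a1 (ENSMUSG00000023942, chromosome 17, 45585200 to 45599606) encodes ENT1, which carries adenosine across the plasma membrane in both directions. It was at 53.5, 57.2 and 73.3 CPM in female L345 A, B and C and at 52.6, 51.9 and 62.9 CPM in female L6S1 A, B and C. In males it was at 48.1, 64.5 and 68.5 CPM in L345 A, B and C and at 73.2, 81.7, 89.3 and 88.4 CPM in L6S1 A, D, E and F. The male groups did not overlap and the female ones did. The male log2 fold change was 0.46 (SE 0.23, 95% interval -0.03 to 0.95, adjusted p = 0.217, edgeR) and the female one -0.14 (SE 0.25, -0.66 to 0.38). Without D and E the male value was 0.41 (adjusted p = 0.623). Slc29a1 and Entpd2 had an r of 0.90 over 13 libraries and of 0.85 without D and E.

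In the comparison of L6S1 with L345 over both sexes, 0 of the 10 genes passed an adjusted p of 0.05 in edgeR, against 0.448% of all 15406 genes, and 1 had an unadjusted p under 0.05 (8.39% of all genes). The values of L6S1 and L345 overlapped for all 10 genes, and did not overlap for 0.766% of all genes. In females 0 of 10 passed (0.0195% of all genes), 0 had such an unadjusted p (2.25%), 0 had groups that did not overlap (8.75%), and no gene moved by more than 0.30 on the log2 scale. In males 0 of 10 passed (0.221%), and 3 had an unadjusted p under 0.05 (Acpp, Entpd2 and Ada), a share near the 25.3% of all genes. The groups did not overlap for 3 of 10 genes in males, all higher in L6S1, and for 18.7% of all genes. For the difference of the level effect between the sexes, 0 of 10 passed (0% of all genes) and 1, Entpd2, had an unadjusted p under 0.05 (11.7%). DESeq2 called 0 of the 10 in these comparisons apart from Ada in males. The median log2 fold change of the 10 was -0.01 over both sexes and -0.03 in males, against 0.02 and 0.04 for all genes.

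**Figure D3:**
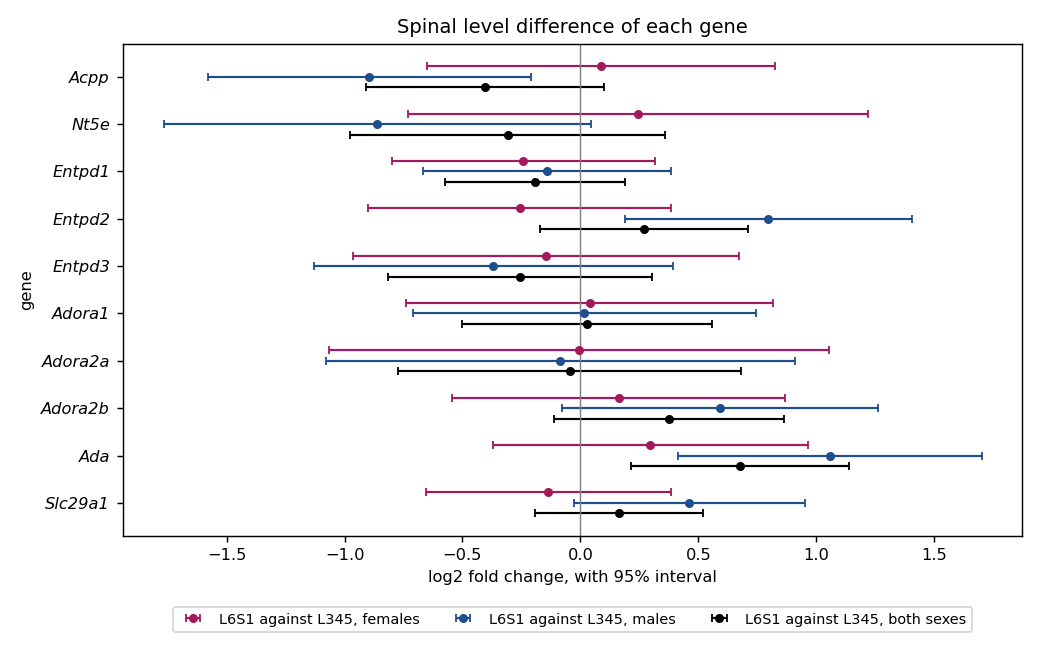
Log2 fold change of L6S1 against L345 for each gene (points) with its 95% interval (bars), in females, in males and averaged over both sexes, from edgeR. The intervals of Acpp, Entpd2 and Ada in males, and of Ada over both sexes, lie to 1 side of 0 before adjustment over all genes.

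Sex itself was compared as males against females, averaged over the levels, and 0 of the 10 genes passed in edgeR (0.0779% of all genes), with 0 at an unadjusted p under 0.05 (6.1%) and 0 called by DESeq2. The largest difference was that of Entpd2, with a log2 fold change of 0.32 (SE 0.21, 95% interval -0.12 to 0.76, adjusted p = 0.670, edgeR). Those of Entpd1 (-0.28, SE 0.18) and Slc29a1 (0.28, SE 0.17) came next.

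The male comparison turned on single libraries. Without male L6S1 A, which was the library nearest to male L345 for Acpp, Nt5e, Entpd2 and Ada, 4 of the 10 genes passed in edgeR, and so did 20.5% of all genes. These were Acpp at a log2 fold change of -1.27 (adjusted p = 0.0146), Nt5e at -1.31 (adjusted p = 0.0342), Entpd2 at 0.91 (adjusted p = 0.0409) and Ada at 1.21 (adjusted p = 0.0174). The remaining male L6S1 libraries were then D, E and F. The letters D, E and F occur only in male L6S1. With the letter as a replicate block shared by both sexes, that group therefore rests on library A alone. The male log2 fold change was then -0.22 for Acpp, -0.13 for Nt5e, 0.46 for Entpd3, 0.72 for Entpd2 and 0.56 for Ada. With a block for each letter within a sex, an alternative chosen after seeing the data, the male value rests on the 2 A libraries, since no other male letter has both levels. The male values there were -0.30 for Acpp, -0.17 for Nt5e, 0.36 for Entpd3, 0.65 for Entpd2 and 1.01 for Ada. Against the mean of the other 11 libraries, the log2 CPM of Nt5e differed by -1.59 in D and -2.31 in E, that of Acpp by -1.22 and -1.41, and that of Entpd3 by -0.68 and -1.65. Entpd2 differed by 0.84 and 0.93 and was the only 1 of the 10 with both libraries above all others. Having both below all others was shared by 18.4% of the genes tested, and having both above by 17.8%. Mrgprd was at 240.0 CPM in D and 90.0 in E against 287 to 620 in the others, next to the marker sums given above. The part of the cell make-up, or of any other feature of these 2 pools, in the values of Acpp, Nt5e, Entpd3 and Entpd2 was not tested.

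**Figure D4:**
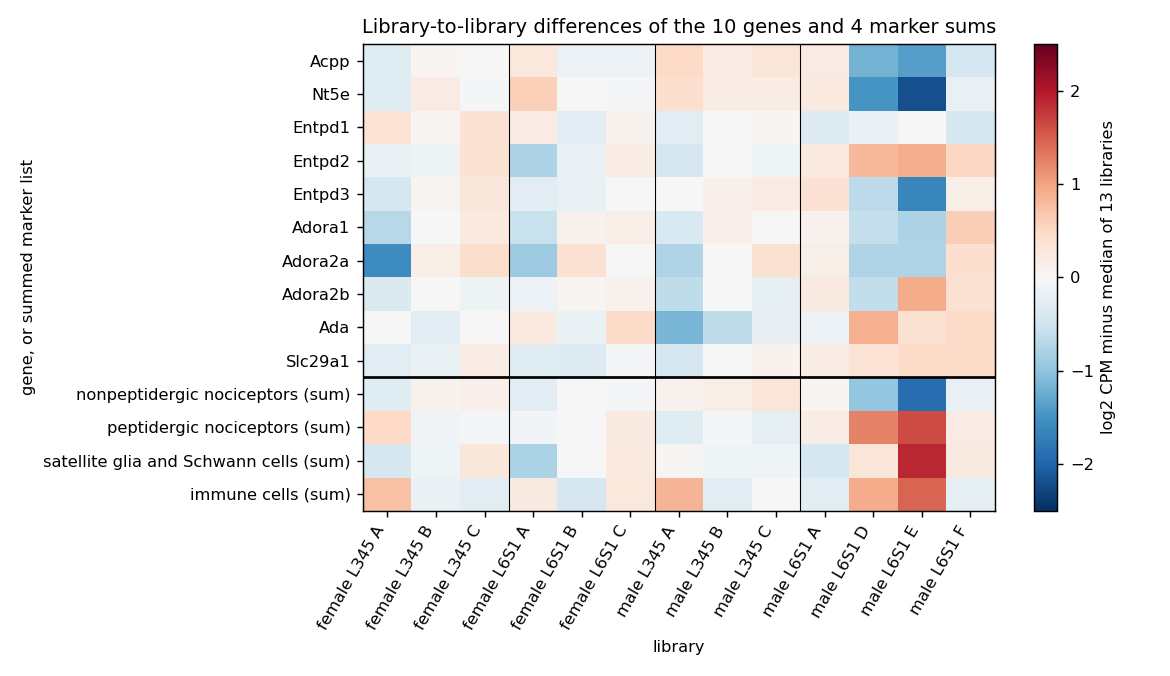
Log2 CPM of each gene and of 4 summed marker lists in each library, minus the median of the 13 libraries (blue lower, red higher). Acpp, Nt5e and Entpd3 are low in male L6S1 D and E together with the nonpeptidergic nociceptor sum, while the peptidergic sum is high there. The glial sum is high in E, where Apoe made up 4985 of 5965 CPM.

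The libraries lettered A differed too. In female L345, female L6S1 and male L345, the A library was the lowest of 3 for 5 of the 10 genes (Entpd2, Entpd3, Adora1, Adora2a and Adora2b), and so it was for 21.7% of all genes tested. For Adora2a the difference of A from the mean of B and C was -1.81, -1.06 and -0.91 on the log2 scale in these groups, and for Adora1 it was -0.81, -0.70 and -0.43.

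Other genes of the pathway and of its enzyme families were read from 4 lists, and 0 of their 35 tested members passed in edgeR in any of the 5 comparisons. At an unadjusted p under 0.05 there were 2 between levels over both sexes (8.39% of all genes), 0 in females (2.25%), 8 in males (25.3%), 1 for the difference between the sexes (11.7%) and 2 for sex (6.1%). DESeq2 called 1, Slc29a4 in males, at a log2 fold change of 1.35 (adjusted p = 0.0427), where it called 7.53% of all genes with an adjusted p. Of 9 further genes of the ENTPD, ENPP and alkaline phosphatase families, not all of them for extracellular enzymes, 7 were tested. Their median log2 fold change was -0.07 between levels over both sexes against 0.02 for all genes. Their sum was 103 to 154 CPM in 11 libraries and 67.7 and 57.6 in male L6S1 D and E. Entpd8 was at 0 counts in 12 libraries. Entpd4 was at 0 in 13, which is uncertain because it has a near-identical copy whose reads counting could drop or split. Of 19 further receptors, enzymes and transporters of adenosine 10 were tested, with a median of 0.13. Among them adenosine kinase (Adk), which turns adenosine back into AMP, was at 1020.1 to 1596 CPM, and its log2 fold change was 0.04 (SE 0.16, adjusted p = 0.936, edgeR). Slc29a4, an equilibrative transporter of the family of Slc29a1, had 1.02 (SE 0.33, unadjusted p = 0.0064, adjusted p = 0.357) and was named after its value was seen. The A3 receptor gene Adora3 had 0 counts in 13 libraries, where a floor of 3 counts allows 0.111 to 0.230 CPM. The 14 G protein and adenylyl cyclase genes were all tested, with a median of -0.18, and 4 of 7 genes of ATP release with a median of 0.10. Gnao1, an inhibitory G protein alpha subunit abundant in neurons, was at 243 to 723 CPM and had -0.40 (SE 0.20, adjusted p = 0.593).

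For each of the 10 genes, the genes most like it were those with the highest Pearson r of log2 CPM over the 13 libraries, among 11236 candidates. For Acpp they were Selenoi (0.98), Prkacb (0.98) and Sestd1 (0.98), and for Nt5e Exoc1 (0.99), Mapre2 (0.99) and Stt3a (0.99). Entpd3 was closest to Gfra2 (0.99), the neurturin coreceptor that marks nonpeptidergic nociceptors, then to Bcas3 (0.98) and Kcnd1 (0.98). The r of Entpd3 with Gfra2 was 0.95 without D and E. Adora1 was closest to Kat2a (0.98), Adora2a to Atxn2l (0.97), Adora2b to Mff (0.95) and Entpd2 to Bckdha (0.98). Slc29a1 was closest to Tmem38a (0.95), Ada to Cdk18 (0.89) and Entpd1 to Rdh10 (0.83). Acpp and Entpd3 had an r of 0.81 over 13 libraries and of 0.25 without D and E, so that this pair rested on those libraries, unlike Acpp and Nt5e.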

How the data were processed

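Per the labels' protocols, RNA of sorted cells from pooled ganglia was amplified (SMARTer Ultra Low Input kit) before Illumina sequencing. The authors deposited a count, a CPM and an RPKM value per gene and library. The deposited counts are whole numbers without normalization, the deposited CPM is scaled to the library's total alone, and the deposited RPKM divides this CPM by the length in kilobases that the file gives for the gene. The submitters' processing notes name STAR 2.0.4b, Salmon, Subread and featureCounts 1.4.5 for the female libraries, Subread and featureCounts for the male ones, and the build GRCm38.p2 (mm10). The handling of strand and of reads that map to several genes is not given in the sources used here. This difference in the notes runs with sex and cannot be told apart from it.

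Counts were tested in R 4.3.3 with edgeR 4.0.16: filterByExpr, TMM factors (0.796 in male L6S1 E, 0.925 in D, 1.01 to 1.05 in the others), robust quasi-likelihood F-test, 1 mean per group over all 13 libraries, Benjamini-Hochberg adjustment over 15406 genes and a threshold of 0.05. CPM printed here is TMM-scaled. An SE is the size of the log2 fold change divided by the root of F. On simulated counts over 15122 genes, the average level comparison called 46.1% of changes of 1 on the log2 scale, 95.4% of changes of 2 and 0.067% of unchanged genes. The simulated libraries varied independently with 1 spread per gene. Deviations shared by many genes, as in male L6S1 D and E, were not in them, and the male comparison was not simulated. Floors of 3 counts cover counting error only, since reads amplified by PCR carried no molecular identifiers.

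Deviations of the 2 levels with the same sex and letter had r of 0.101 to 0.520 in 4 pairs (median 0.346). Same-letter pairs across the sexes, which are different mice, had -0.106 to 0.518 in 8 pairs (median 0.326). Pairs of other letters had -0.556 to 0.456 in 51 (median -0.041). Pool sizes differ within female C (3 and 5 mice) and male A (5 and 9). These r therefore do not show that a letter pairs mice. A fit with the letter as a replicate block, which also ties female and male pools of a letter, was an alternative. A block within each sex was added after seeing the data. DESeq2 1.42.0, no factor between libraries, no filter, 1 sex alone, and leaving out libraries were others. The 10 genes, the 4 pathway lists and the marker lists were chosen with earlier results of these data known. The text names all 10, the 3 genes most like each by r (all 3 for the ectonucleotidases Acpp, Nt5e and Entpd3, the first for the others), called list members, and Ret, Mrgprd, Apoe and Rbfox3. Rbfox3, a neuronal marker, was at 64.6 to 146 CPM. Adk, Slc29a4, Gnao1, C1qa, Entpd4, Entpd8, Adora3 and genes overlapping the 10 were named after their values were seen.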

Additional observations from a re-analysis of the deposited data

How the results depend on the processing

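Of 1030 log2 fold changes of the 10 genes recomputed under other settings, 1005 kept their side of the threshold and their direction or moved across 0 within 1 SE, 5 newly passed the threshold, all in males, and 20 that were not called changed sign by more than 1 SE. The count of called genes among the 10 in the male comparison was 1 with DESeq2 and 0 to 4 with each library left out in turn (4 without male L6S1 A), against 0. It was 0 in every other comparison and setting that was run. The replicate block, whose letters are shared by both sexes, leaves 4 residual degrees of freedom in place of 9. Male L6S1 rests there on library A alone. The replicate block within each sex, chosen after seeing the data, leaves 2 and does not estimate the effect of sex. Its male level difference rests on the 2 A libraries. Nearest to a call with the shared block was Entpd3 for sex (log2 fold change 0.43, edgeR). Adora1 for the level in males (0.62) and Adora2b for the level over both sexes (0.45) came next.

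The counts of all called genes moved more. With either block, male L6S1 rests on library A alone, so of the block counts only the female ones use all libraries compared. Over both sexes 69 genes were called, and 187 with DESeq2, 144 without a filter, 837 with the replicate block, 118 with the block within each sex, 37 without male L6S1 E and F, and 28 to 129 with each library left out in turn. In females there were 3, and 47 with DESeq2, 34 without a filter, 96 with the block, 56 with the block within each sex, 23 without male L6S1 D and E, 14 from that sex alone, and 0 to 11 with each library left out. In males there were 34, and 965 with DESeq2, 264 without a filter, 719 with the block, 0 with the block within each sex, 19 without D and E, 9 without E and F, 2 from that sex alone, and 4 (without male L345 C) to 3133 (without male L6S1 A) with each library left out. For the difference between the sexes there were 0, and 1 without a filter and 31 with the block. For sex there were 12, and 24 with DESeq2, 19 without a filter, 369 with the block and 7 without D and E. The cause of these shifts was not tested. Adora2a, Entpd1, Ada, Entpd2 and Adora2b had 23 to 521 counts in a library, so that counting error weighs most on them.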
